A study of Homo sapiens with 6 samples.

Results

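The genes described here encode the cytosolic and mitochondrial heat shock proteins, namely the HSP70, HSP110, HSP90, HSP60 and small heat shock protein families, the J proteins (HSP40), their co-chaperones and the heat shock factors. They were chosen by gene symbol, and every probe set annotated singly to a listed gene was taken. Of 36 listed genes, 32 had such a probe set, 74 probe sets in all, out of 19775 genes with a singly annotated probe set on the array. HSPB11 was matched through its current symbol, IFT25. HSPA1A and HSPA8 had only probe sets that are shared with other genes, and no probe set was assigned here to AHSA1 or HSF2. The RNA came from IGROV1, an established human ovarian carcinoma cell line, sorted after staining with the DNA dye Hoechst. Side population (SP) cells are those that retain little dye, and non-SP cells are those sorted outside that gate. Each group had 3 samples, labelled as biological replicates, from cells with no treatment other than the sort, and each sample was hybridised to 1 array. Both groups carried the dye and passed through the sorter, and no unsorted cells are among the samples. Whether the samples came from separate cultures is not stated, so the spread behind each p-value may be partly or wholly technical.

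Heat shock proteins bind unfolded or partly folded polypeptides. HSP70 proteins hold and release client segments in a cycle of ATP hydrolysis that J proteins start and that HSP110 and BAG proteins reset by nucleotide exchange, and HSP90 completes the maturation of many kinases and steroid receptors. HSPD1 and HSPE1 form the folding chamber of the mitochondrial matrix, and small heat shock proteins hold clients without ATP. After heat or other proteotoxic stress the factor HSF1 binds heat shock elements, inverted repeats of the letters GAA, in the promoters of many of these genes. In carcinoma lines several of the genes are expressed at high level without any applied stress.

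The arrays were checked first. Values are log2 expression per probe set, and the median per array lay between 5.59 and 5.64. ABCB1, which encodes a pump that exports the dye, averaged 9.66 across SP arrays and 4.89 across non-SP arrays. ABCG2, the other dye exporter looked at, averaged 4.72 in SP and 4.90 in non-SP cells, with overlapping groups. All 10 ovarian and epithelial markers were above the highest negative control on every array. PAX8, KRT18, KRT19 and EPCAM had means between 10.33 and 12.20 in both groups, while WT1 averaged 7.42 in SP and 7.64 in non-SP cells, CLDN4 5.74 in SP and 5.51 in non-SP cells, and MUC16 5.07 in SP and 5.24 in non-SP cells. CDH1 differed by 0.79 (SE 0.31), KRT7 by 0.79 (SE 0.18) and KRT8 by -0.71 (SE 0.22). Of 5 leukocyte markers, PTPRC was above the highest negative control on 1 of 6 arrays and CD3E on 0, whereas CD14, CSF1R and LYZ were above it on all 6, with differences of -0.04, 0.20 and -0.08. The arrays did not fall apart by group alone. On the first principal component of the genes that are no members, which held 45.8% of the variance, SP replicates 2 and 3 and non-SP replicate 2 lay between 27.3 and 30.7, and SP replicate 1 and non-SP replicates 1 and 3 between -37.1 and -24.1. The first 3 of these arrays also had the higher 3' minus 5' signal of the actin control, 2.46 to 2.55 against 2.02 to 2.29 on the others. The same signal of the GAPDH control did not split this way. It was 0.035 and 0.17 on SP replicates 2 and 3 and 0.36 on non-SP replicate 2. On SP replicate 1 it was 0.14, and on non-SP replicates 1 and 3 it was 0.15 and 0.042. The labels name no batch, and the part of this axis in the results was not tested beyond the values given with it below. In bulk samples, fewer cells of a type and less RNA per cell cannot be told apart.

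The promoters of 32 of the 36 genes were available (RefSeq, GRCh38.p14, from 250 bases before to 50 bases after each annotated start). None was found for HSF1, HSPA14, HSPB11 or ST13, so these are not the same 32 genes as those measured. Heat shock elements of 3 units were searched as GAA, TTC and GAA, or as TTC, GAA and TTC, with NN between neighbouring units. These 2 forms are reverse complements, so both strands were covered, and matches may overlap. They were present for 8 of these 32 genes, against 166 of 27305 genes (0.608%) over all promoters of the table. The 8 genes were CHORDC1, DNAJA1, DNAJB6, HSP90AA1, HSP90AB1, HSPA6, HSPA8 and HSPD1. The following windows are those of HSPA6 and HSPH1, the members with the smallest p, and of 3 other genes with an element, whose differences were smaller. HSPA1L, HSPA2 and HSPB1, with the widest differences below 0, are not among them and hold no 3-unit element. Capitals mark the 3-unit elements.
HSPA6, chr1:161524290-161524589, plus strand: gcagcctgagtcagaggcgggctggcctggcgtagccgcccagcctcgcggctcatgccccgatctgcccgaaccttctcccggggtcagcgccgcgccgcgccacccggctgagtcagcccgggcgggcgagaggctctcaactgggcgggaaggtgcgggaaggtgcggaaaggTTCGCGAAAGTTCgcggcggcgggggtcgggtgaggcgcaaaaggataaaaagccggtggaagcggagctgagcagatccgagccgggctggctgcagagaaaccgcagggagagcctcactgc
HSPH1, chr13:31162339-31162638, minus strand: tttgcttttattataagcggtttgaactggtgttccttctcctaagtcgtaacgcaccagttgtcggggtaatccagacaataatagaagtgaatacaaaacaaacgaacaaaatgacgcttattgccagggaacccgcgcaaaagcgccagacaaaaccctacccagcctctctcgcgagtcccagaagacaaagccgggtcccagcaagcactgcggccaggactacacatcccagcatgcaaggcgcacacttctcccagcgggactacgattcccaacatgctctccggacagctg
CHORDC1, chr11:90223000-90223299, minus strand: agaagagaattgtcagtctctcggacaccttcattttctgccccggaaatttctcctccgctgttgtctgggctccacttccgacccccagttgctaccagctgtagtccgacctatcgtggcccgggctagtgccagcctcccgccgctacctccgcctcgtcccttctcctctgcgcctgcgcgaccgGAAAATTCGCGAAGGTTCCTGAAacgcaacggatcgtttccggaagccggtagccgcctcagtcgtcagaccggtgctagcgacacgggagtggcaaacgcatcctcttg
HSP90AA1, chr14:102086995-102087294, minus strand: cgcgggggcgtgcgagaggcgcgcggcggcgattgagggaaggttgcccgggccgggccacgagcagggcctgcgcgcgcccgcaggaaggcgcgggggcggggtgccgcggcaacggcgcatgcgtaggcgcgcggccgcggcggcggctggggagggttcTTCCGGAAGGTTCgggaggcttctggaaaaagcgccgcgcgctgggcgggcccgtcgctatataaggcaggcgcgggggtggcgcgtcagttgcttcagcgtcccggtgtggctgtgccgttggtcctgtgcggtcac
HSPD1, chr2:197499791-197500090, minus strand: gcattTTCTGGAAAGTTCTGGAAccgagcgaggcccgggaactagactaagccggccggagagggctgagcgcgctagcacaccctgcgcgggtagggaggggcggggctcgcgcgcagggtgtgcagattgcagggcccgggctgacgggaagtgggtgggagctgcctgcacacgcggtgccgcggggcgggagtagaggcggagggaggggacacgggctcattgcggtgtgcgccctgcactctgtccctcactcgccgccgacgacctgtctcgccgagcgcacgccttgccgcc
Counted from the start, the element begins at -74 in HSPA6 and at -88 in HSP90AA1, and CHORDC1 holds 3 overlapping matches that begin between -60 and -50. The HSPD1 window is that of the more downstream of its 2 annotated starts, with overlapping matches at -245 and -240. The other HSPD1 window, and a window of HSP90AA1 farther upstream than the printed one, hold no match. HSPH1 has no match of these letters in the window printed above, nor of 2 neighbouring units (GAA and TTC in either order with NN between). Such a pair was present for 18 of the 32 genes (56.25%), against 16.2% of all genes. HSPA1L, HSPB1 and, at -98, DNAJB4 hold one in a window, and HSPA2 does not.

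SP and non-SP cells were set against each other to ask whether chaperone expression differs with the dye phenotype of the cells. Most differences were small beside the spread between arrays. The widest, in both directions, were in HSP70, HSP110 and J protein genes, which gave 5, 3 and 8 of the 32 measured members. Of the 5 members with the smallest unadjusted p in limma, HSPH1, HSPA6, HSPA14 and DNAJB4 were between 0.56 and 0.95 log2 units higher in SP cells. The other, HSPA2, was 0.66 lower. HSPA1L (-0.84, SE 0.47) and HSPA13 (0.62, SE 0.68) also differed widely, but their groups overlapped and their intervals included 0. No filter on low values was applied, so all 32 measured members entered the fit over 19775 genes (limma, two-sided, Benjamini-Hochberg adjustment over all genes, threshold 0.05). In that fit 0 members were higher and 0 lower past the threshold, against 0.00506% of all genes called in either direction, and the smallest adjusted p of a member was 0.415. At an unadjusted p under 0.05 there were 5 members (15.6%), against 6.78% of all genes. Of these, 4 were higher in SP cells, against 3.07% of all genes, and 1 was lower, against 3.71%. The groups did not overlap for 5 members (15.6%), against 11.9% of all genes, with 3 higher in SP cells (4.78% of all genes) and 2 lower (7.1%). The difference was above 0 for 18 of 32 members, against 45.3% of all genes, and its median was 0.04 over the members and -0.02 over all genes.

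**Figure D1:**
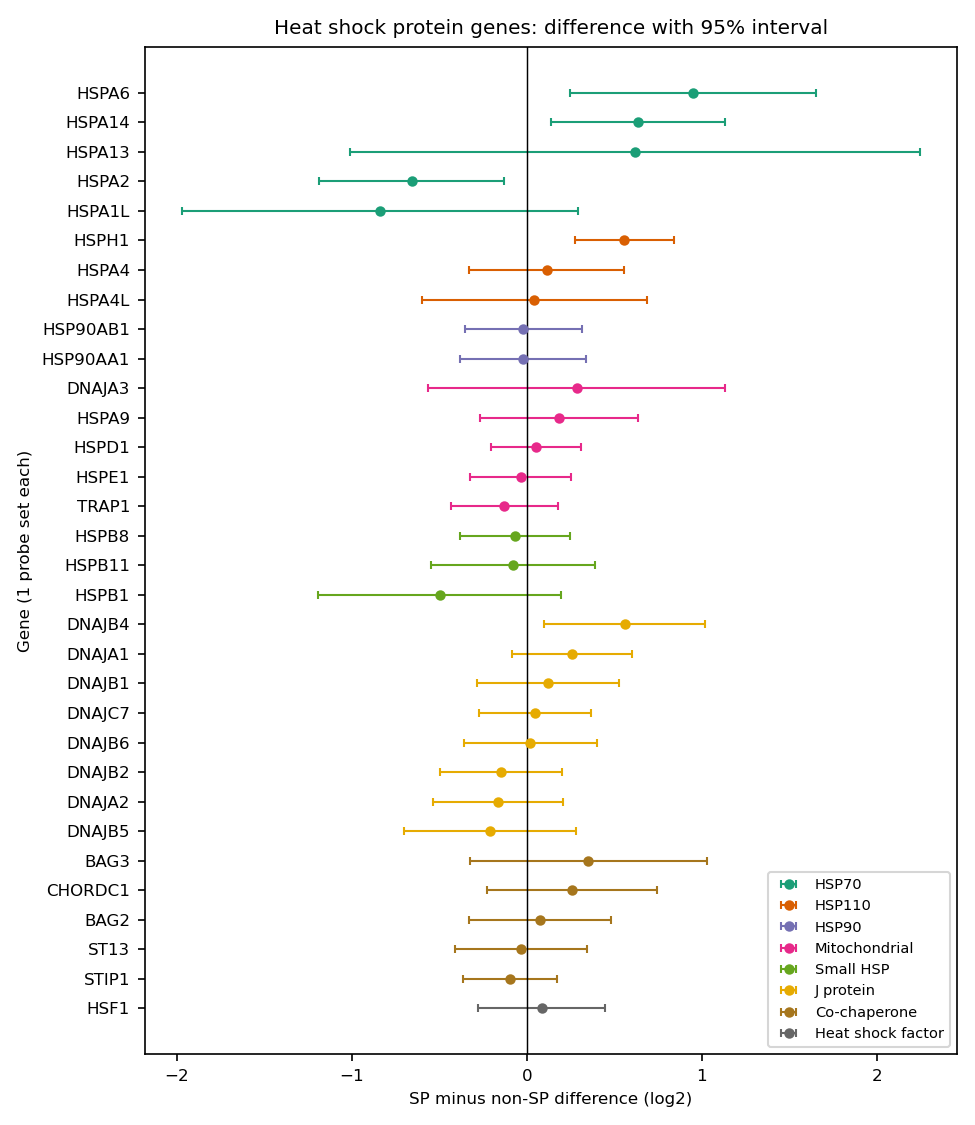
SP minus non-SP difference on the log2 scale for the 32 measured genes, 1 probe set each, coloured by role; bars are 95% intervals from limma with 3 arrays per group. The intervals of HSPA6, HSPA14, HSPH1 and DNAJB4 lie above 0 and that of HSPA2 below it, before any adjustment for the number of genes tested, and the intervals of the other 27 genes include 0.

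Among the HSP70 proteins, the widest difference was in HSPA6, a human gene known for its induction by proteotoxic stress. It was above the highest negative control on all 6 arrays, and its mean level lay at percentile 55.4 of all genes. Its log2 level was 6.80, 7.23 and 7.45 in SP cells, against 5.90, 6.80 and 5.92 in non-SP cells. SP replicate 1 and non-SP replicate 2 had nearly the same value, so the groups overlapped. The difference was 0.95 (SE 0.29, adjusted p = 0.612), or 1.93-fold with a 95% interval of 1.19 to 3.15, and its second probe set gave 0.92. HSPA6 is close in sequence to other HSP70 genes, so its probes may also read related transcripts.

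HSPA14, an HSP70 relative that works on ribosomes with the J protein DNAJC2, had 9.50, 9.72 and 9.39 in SP cells, against 8.48, 9.11 and 9.12 in non-SP cells. Every SP value lay above every non-SP value, and the difference was 0.64 (SE 0.21, adjusted p = 0.619). A second probe set differed by 0.42 and the third by -0.33. With the mean of the 3 probe sets the difference was 0.24.

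HSPA2, best known for its part in sperm development, ran the other way, at 8.72, 7.87 and 8.38 in SP cells, against 9.06, 8.91 and 8.98 in non-SP cells. The non-SP values lay close together (SD 0.08) and all above the SP values, and the difference was -0.66 (SE 0.22, adjusted p = 0.633). HSPA1L, another HSP70 gene with strong expression in testis, had 5.47, 4.48 and 5.87 in SP cells, against 6.71, 6.34 and 5.28 in non-SP cells. Its groups overlapped (difference -0.84, SE 0.47, and -0.44 without SP replicate 2), and its other probe set differed by 0.09. HSPA13, an HSP70 relative of microsomes, had 10.12, 11.79 and 11.80 in SP cells, against 9.78, 11.92 and 10.16 in non-SP cells. It spread over more than 2 log2 units within the non-SP group alone, so its difference of 0.62 had an interval of -1.01 to 2.25.

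The best known pair of HSP70 proteins, the stress-inducible HSPA1A and the constitutive HSPA8, could be read only through shared probe sets. A probe set annotated to HSPA1A and HSPA1B together had 11.37, 11.85 and 11.71 in SP cells, against 11.39, 11.44 and 11.70 in non-SP cells (difference 0.13, interval -0.28 to 0.55). A second one of the same pair differed by 0.81 (SE 0.57), with 1 non-SP array at 4.20, and one that also reads HSPA1L differed by 0.06. The groups overlapped on all 3 of these probe sets. The 4 probe sets annotated to HSPA8 with the small nucleolar RNAs of its introns differed by 0.08 to 0.20, and on 2 of the 4 the groups did not overlap, with SP higher, against 12.5% of singly tested probe sets in either direction. The 4 share 1 annotation and are not independent. Their unadjusted p lay between 0.171 and 0.537. These probe sets cannot say which of their genes they read.

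**Figure D2:**
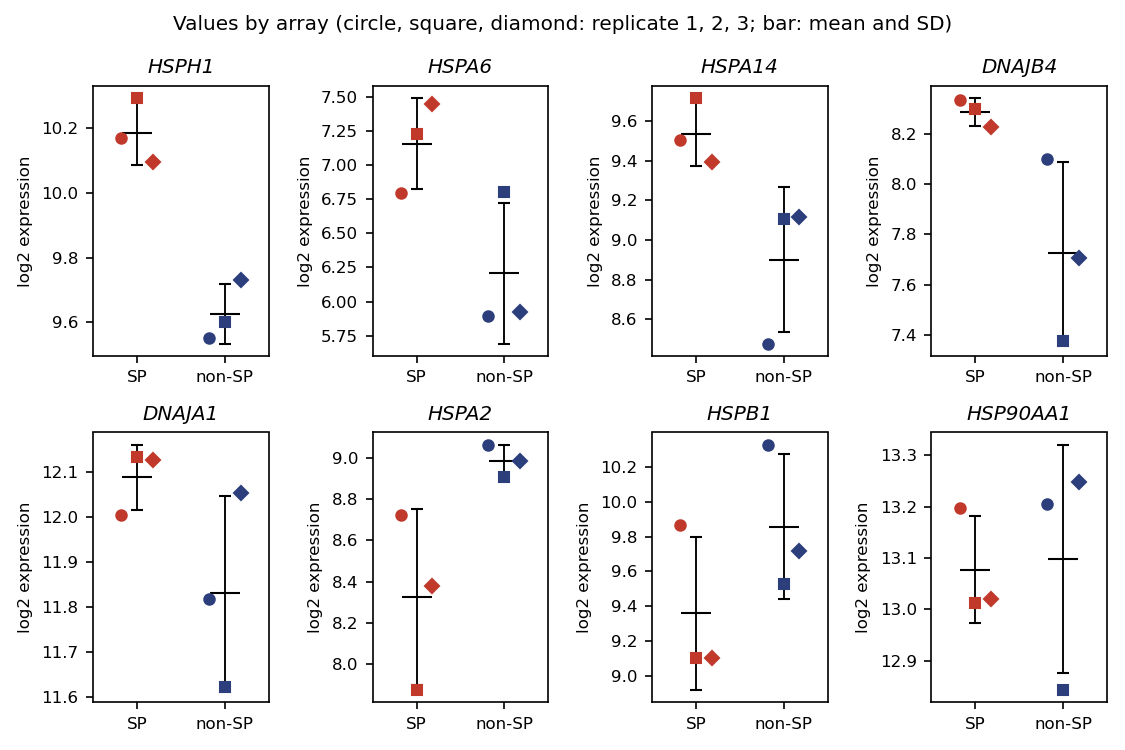
Log2 expression by array for 8 genes, SP left of non-SP; each symbol is 1 array and the bar is the mean with its SD (n = 3). In HSPH1, HSPA14 and DNAJB4 the SP arrays lie above all non-SP arrays and in HSPA2 below them, while HSPA6, DNAJA1, HSPB1 and HSP90AA1 overlap; each panel has its own axis, which does not start at 0.

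The HSP110 proteins release ADP from HSP70 and so reset its cycle. HSPH1 was the member with the smallest p of all. It had 10.17, 10.29 and 10.09 in SP cells, against 9.55, 9.60 and 9.73 in non-SP cells. The SP mean was 10.18 ± 0.10 and the non-SP mean 9.63 ± 0.09 (SD, n = 3 each), and the groups did not overlap. The difference of 0.56 (SE 0.12) corresponds to 1.47-fold (interval 1.21 to 1.79), with an unadjusted p of 0.00253 and an adjusted p of 0.415 in limma. All 3 probe sets pointed the same way, at 0.56, 0.61 and 0.71. On the last of them the groups overlapped and the interval was -0.001 to 1.42. The 3 probe sets read 1 gene on the same arrays and are not independent. The estimates for its relatives were smaller, with wide intervals, and the gap between the genes was not tested. HSPA4 differed by 0.11 (interval -0.33 to 0.56) and HSPA4L by 0.04 (interval -0.60 to 0.68).

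The cytosolic HSP90 genes had differences close to 0. HSP90AA1, the stress-inducible form, had 13.20, 13.01 and 13.02 in SP cells, against 13.20, 12.84 and 13.25 in non-SP cells. HSP90AB1, the constitutive form, had 12.76, 12.66 and 12.69 in SP cells, against 12.80, 12.49 and 12.89 in non-SP cells. In both genes the lowest and the highest array were non-SP arrays. The differences were -0.02 for each, with intervals of -0.38 to 0.34 and -0.36 to 0.32, and their sign turned to 0.01 when each array was centred on its median. The 7 probe sets of the 2 genes ranged from -0.10 to 0.07.

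Of the co-chaperones, 5 of 6 were measured and their differences ranged from -0.10 to 0.35. BAG3, which couples HSP70 clients to autophagy, had 8.46, 9.23 and 9.50 in SP cells, against 8.58, 8.56 and 8.99 in non-SP cells. SP replicate 1 was the lowest of the 6 arrays, and the difference was 0.35 (SE 0.28), which was 0.65 without SP replicate 1 and 0.13 without SP replicate 3. CHORDC1, an HSP90-binding protein, had 9.46, 9.93 and 9.89 in SP cells, against 9.18, 9.75 and 9.57 in non-SP cells. The groups overlapped (difference 0.26, SE 0.20, and 0.10 without non-SP replicate 1), its other probe set differed by 0.41, and a probe set that it shares with NAALAD2 differed by 0.83 (SE 0.29). STIP1, which bridges HSP70 and HSP90, had 11.43, 11.32 and 11.23 in SP cells, against 11.47, 11.38 and 11.42 in non-SP cells, with overlapping groups (difference -0.10, interval -0.37 to 0.17). ST13, another HSP70 partner, differed by -0.03 (interval -0.41 to 0.35), and its sign turned under median centring (0.001).

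The 5 mitochondrial chaperones had differences between -0.13 and 0.29. HSPD1 (HSP60) had 13.23, 13.21 and 13.19 in SP cells, against 13.18, 13.07 and 13.22 in non-SP cells, and HSPE1 (HSP10) had 12.94, 12.95 and 12.93 in SP cells, against 12.97, 12.83 and 13.13 in non-SP cells. The SP arrays lay within 0.05 of each other for both genes, inside or overlapping the non-SP range. The differences were 0.05 (interval -0.21 to 0.31) and -0.04 (interval -0.33 to 0.26). TRAP1, the mitochondrial HSP90, had 10.07, 10.02 and 10.06 in SP cells, against 10.38, 10.07 and 10.09 in non-SP cells. Its SP values lay below all non-SP values, though the highest SP and the lowest non-SP array were equal to 2 decimals, and the difference of -0.13 had an interval of -0.44 to 0.18. HSPA9, the mitochondrial HSP70, had 11.94, 12.41 and 12.38 in SP cells, against 11.95, 12.33 and 11.89 in non-SP cells, with overlapping groups and a difference of 0.19 (SE 0.19). DNAJA3, the J protein of the same compartment, differed by 0.29 (SE 0.35).

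Among the members, both small heat shock proteins with a signal above the negative controls had differences below 0. Of 7 other small heat shock proteins measured outside the members, 3 had differences above 0 and 4 below, with a median of -0.0022. HSPB1 (HSP27) had 9.87, 9.11 and 9.11 in SP cells, against 10.33, 9.53 and 9.72 in non-SP cells. SP replicates 2 and 3 were the lowest arrays and SP replicate 1 lay inside the non-SP range, with a difference of -0.50 (SE 0.29, interval -1.19 to 0.20). Leaving out SP replicate 1 gave -0.75, and leaving out non-SP replicate 1 gave -0.26. HSPB8, the partner of BAG3, was not above the highest negative control on any of the 6 arrays, so no difference is read from it. HSPB11 (IFT25), a protein of intraflagellar transport, differed by -0.08 (interval -0.55 to 0.39), and by 0.08 without SP replicate 2.

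**Figure D3:**
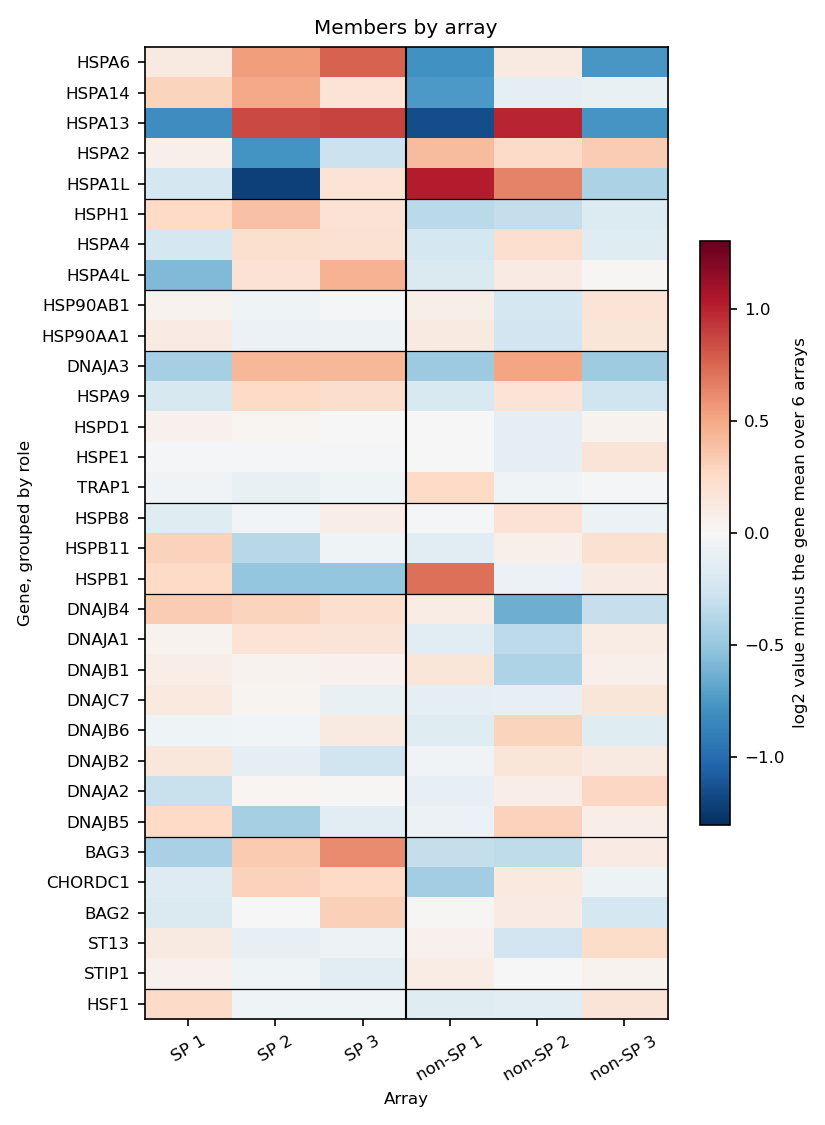
Log2 value of each measured gene on each array minus the mean of that gene over the 6 arrays, with genes grouped by role (horizontal lines) and SP arrays left of the vertical line. HSPH1 and HSPA14 are above their means on all 3 SP arrays, whereas HSPA13 and DNAJA3 are high on SP replicates 2 and 3 and on non-SP replicate 2.

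J proteins deliver clients to HSP70, and 5 of the 8 measured had differences above 0. DNAJB4, a cytosolic J protein close to DNAJB1, had 8.33, 8.30 and 8.23 in SP cells, against 8.10, 7.38 and 7.71 in non-SP cells. The SP values were tight and all above the scattered non-SP values. The difference was 0.56 (SE 0.19, adjusted p = 0.659), and the second probe set gave 0.31. DNAJA1, a major cytosolic J protein, had 12.01, 12.13 and 12.13 in SP cells, against 11.82, 11.62 and 12.05 in non-SP cells. One non-SP array lay above the lowest SP array. The difference was 0.26 (SE 0.14), and on the second probe set, where the groups also overlapped, it was 0.42 (SE 0.17).

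The remaining J proteins differed less. DNAJB1, the heat-inducible J protein, had 9.13, 9.09 and 9.10 in SP cells, against 9.20, 8.64 and 9.11 in non-SP cells, and its groups overlapped (difference 0.12, interval -0.28 to 0.53). DNAJA2 had 9.60, 9.92 and 9.90 in SP cells, against 9.78, 9.97 and 10.16 in non-SP cells. DNAJB2, a J protein prominent in neurons, had 9.21, 8.94 and 8.81 in SP cells, against 9.01, 9.22 and 9.17 in non-SP cells. Neither separated the groups, with differences of -0.16 (SE 0.16) and -0.15 (SE 0.15). DNAJB5 had 6.15, 5.45 and 5.76 in SP cells, against 5.81, 6.19 and 5.98 in non-SP cells (difference -0.21, SE 0.21). DNAJC7 had 9.56, 9.47 and 9.33 in SP cells, against 9.31, 9.33 and 9.59 in non-SP cells. Its groups overlapped and differed by 0.05. DNAJB6, which suppresses protein aggregation, differed by 0.02.

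HSF1, the main activator of the stress response, was the measured heat shock factor. It had 7.38, 7.08 and 7.07 in SP cells, against 6.98, 6.99 and 7.30 in non-SP cells. The groups overlapped, the difference was 0.08 (interval -0.28 to 0.45), and the second probe set differed by 0.004. The mRNA level says nothing of the trimerisation and nuclear entry through which the protein is activated. Among the measured genes with a 3-unit element in the promoter windows, HSPA6 differed by 0.95, CHORDC1 and DNAJA1 by 0.26 and HSPD1 by 0.05. DNAJB6 differed by 0.02, and HSP90AA1 and HSP90AB1 by -0.02 each. HSPH1, whose window above holds no such letters, differed by 0.56.

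Probe sets of 1 gene did not always point the same way. Of 74 probe sets, 71 were above the highest negative control on all 6 arrays, and 25 genes had at least 2 such probe sets. The sign was shared within 16 of these genes and differed within 9, namely BAG2, DNAJC7, HSP90AA1, HSP90AB1, HSPA14, HSPA1L, HSPD1, STIP1 and TRAP1. Tested one by one, 0 of 74 member probe sets passed the threshold over 54613 probe sets (0.00183% called in limma), 9 had an unadjusted p under 0.05 (12.2%, against 7.31% of all probe sets) and 8 had groups that did not overlap (10.8%, against 12.5%).

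The widest split was within BAG2, a co-chaperone that restrains the ubiquitin ligase STUB1. A probe set other than the brightest had 7.65, 7.64 and 7.76 in SP cells, against 8.48, 8.48 and 8.61 in non-SP cells. The groups were tight and apart, with a difference of -0.85 (SE 0.12, unadjusted p = 0.000243, limma adjusted p = 0.175 over all probe sets), the smallest p of any member probe set. The probe set that stood for the gene had 9.07, 9.25 and 9.56 in SP cells, against 9.26, 9.36 and 9.02 in non-SP cells. It overlapped between groups (difference 0.08, SE 0.17), and the last of the 3 differed by -0.14. In DNAJC7 the 2 other probe sets differed by -0.44 and -0.17.

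**Figure D4:**
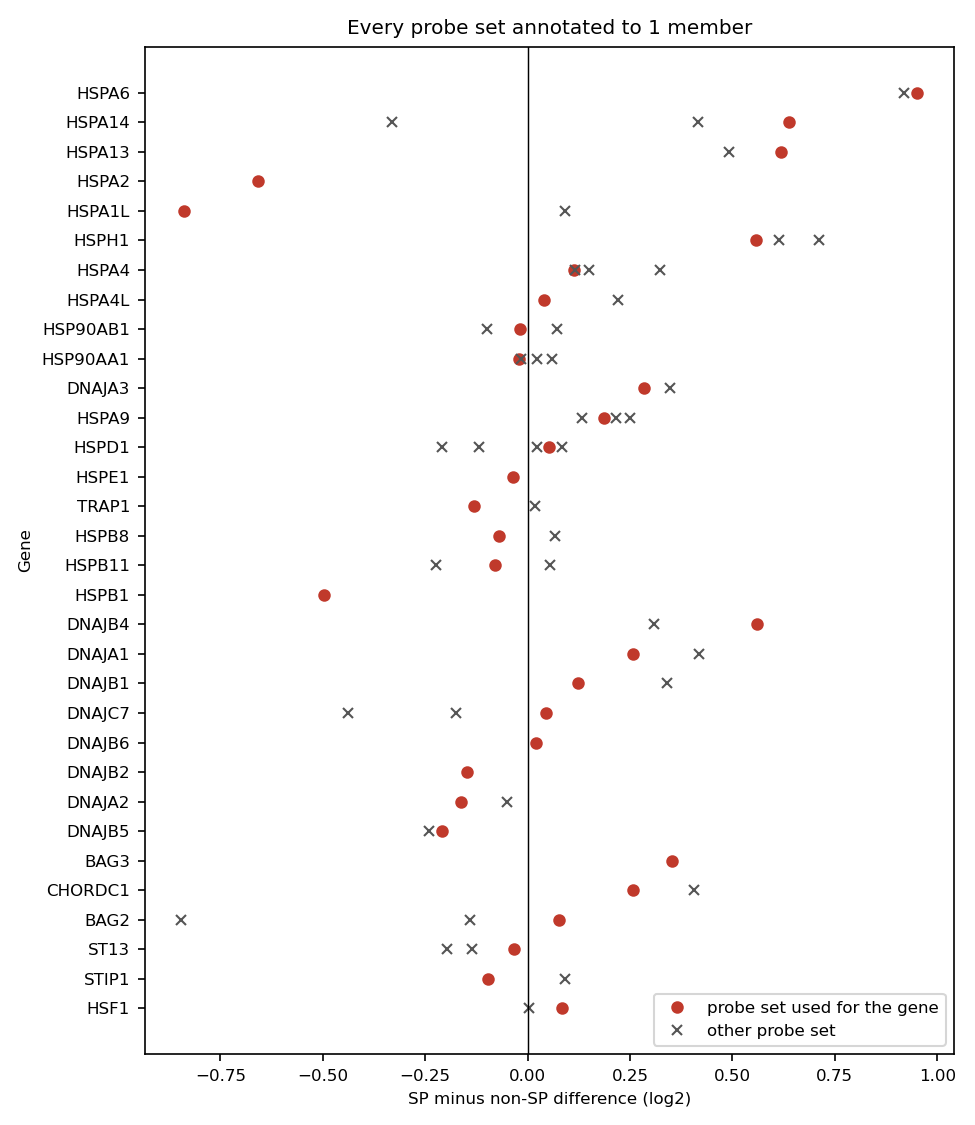
SP minus non-SP difference (log2) of all 74 probe sets annotated to 1 measured gene; filled circles are the probe sets that stood for the gene and crosses the others. The 3 HSPH1 probe sets lie between 0.56 and 0.71, while those of BAG2 run from -0.85 to 0.08 and those of HSPA14 from -0.33 to 0.64.

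Several members separated by the axis that divided the arrays. On SP replicates 2 and 3 and non-SP replicate 2, HSPA13 had 11.79, 11.80 and 11.92, at least 1.63 above the other 3 arrays. DNAJA3 had 9.46, 9.46 and 9.54 on those arrays, against 8.60, 8.55 and 8.56 on SP replicate 1 and non-SP replicates 1 and 3. HSPA9 and HSPA4 were also higher on the same 3 arrays, by at least 0.38 and 0.36. HSP90AA1, HSPB1 and ST13 were lower there, with gaps of -0.18, -0.19 and -0.12. Within each side the mean of HSPB1 was also lower in SP cells, by differences of -0.15 and -0.42. However, SP replicate 1 (9.87) lay between non-SP replicates 3 (9.72) and 1 (10.33). With the side added to the fit after seeing the data, HSPB1 differed by -0.29 (SE 0.19). In all, 14 of 32 members (43.8%) had these 3 arrays all above or all below the other 3, 8 above and 6 below, against 26.9% of all genes. The axis was read from the values of other genes of the same arrays, so these counts are a description.

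Within each side of that axis, HSPH1 differed by 0.53 (SP replicate 1 against non-SP replicates 1 and 3) and by 0.59 (SP replicates 2 and 3 against non-SP replicate 2). HSPA6 differed by 0.89 and 0.54, HSPA14 by 0.71 and 0.45, DNAJB4 by 0.43 and 0.89, and HSPA2 by -0.30 and -0.78. The 5 genes were picked for their difference on the same arrays, and where the groups do not overlap any such division keeps the sign, so these values are a description. HSPA6 also separated by the axis, narrowly, with a gap of 0.0053 between its sides. With the side as a block, chosen after seeing the data, HSPH1 differed by 0.56 (SE 0.12, limma adjusted p = 0.209) and HSPA6 by 0.71 (SE 0.14, adjusted p = 0.169). In that fit 0 members passed, against 0.0253% of all genes, and 5 had an unadjusted p under 0.05, against 10.8%. HSPA13 then differed by 0.01 (SE 0.15) and DNAJA3 by -0.02 (SE 0.11).

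**Figure D5:**
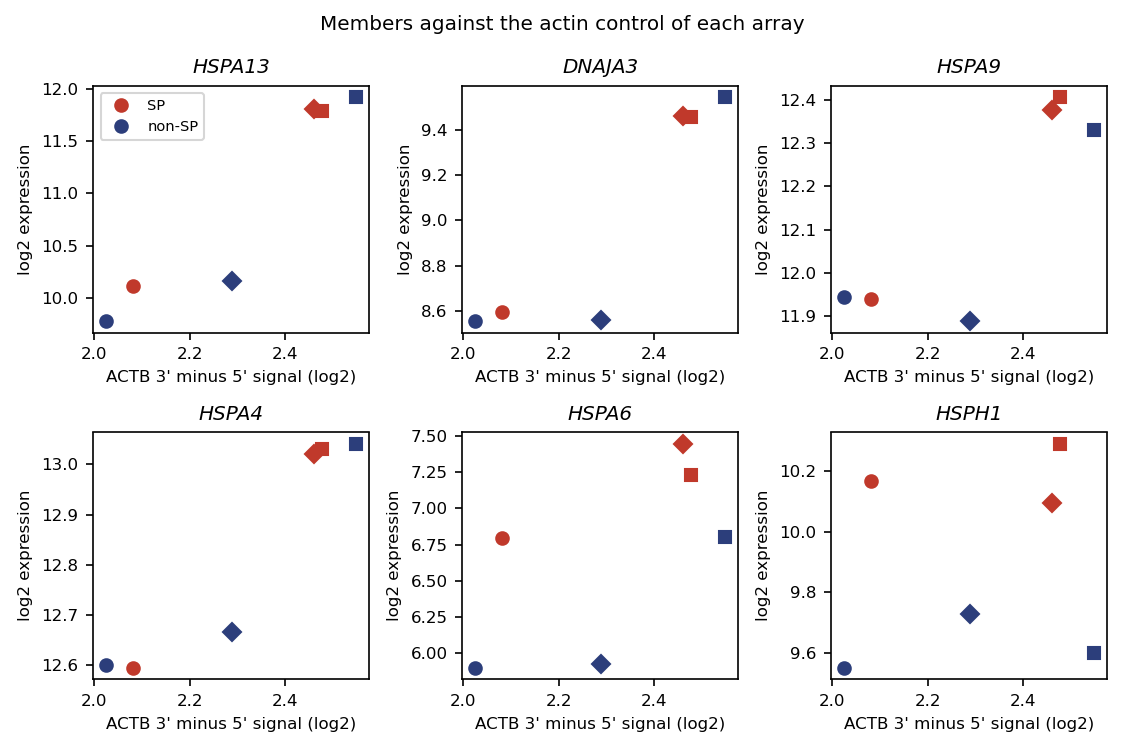
Log2 expression of 6 genes against the 3' minus 5' signal of the actin control on the same array (both log2); circles, squares and diamonds are replicates 1, 2 and 3 of SP and non-SP cells. HSPA13, DNAJA3, HSPA9 and HSPA4 are high on the 3 arrays whose control signal is 2.46 or more, whichever the group, while HSPH1 is high on the 3 SP arrays on both sides.

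Beyond the members, 86 other genes of the chaperone network were measured, and 0 passed the threshold in either direction. Their median difference was 0.02, and 3 had an unadjusted p under 0.05 (3.49%, against 6.78% of all genes). FKBP5, an HSP90 co-chaperone that glucocorticoid hormone induces, had 6.77, 6.96 and 6.33 in SP cells, against 7.86, 7.72 and 7.36 in non-SP cells. All SP values were below all non-SP values (difference -0.96, SE 0.21, adjusted p = 0.445). DNAJB13, a J protein of sperm flagella and cilia, had 6.31, 5.11 and 4.74 in SP cells, against 6.42, 7.13 and 6.63 in non-SP cells (difference -1.34, SE 0.42, adjusted p = 0.612). With the mean of its probe sets the difference was -0.55.

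Of 7 measured genes that HSF1 is known to induce and that encode none of the members, 5 had differences above 0, against 45.3% of all genes. Their median was 0.22, against -0.02 over all genes, and 0 passed the threshold. SERPINH1, the collagen chaperone HSP47, had 10.16, 10.22 and 10.35 in SP cells, against 9.77, 9.87 and 9.93 in non-SP cells. The groups did not overlap (difference 0.39, SE 0.12, adjusted p = 0.611). IER5, which takes part in HSF1 activation, differed by 0.22 (SE 0.11) and DEDD2 by 0.41 (SE 0.21). The other genes of this list were SQSTM1 (0.35, SE 0.26), UBB (0.08), MRPL18 (-0.0051) and CACYBP (-0.06). SQSTM1 was higher on SP replicates 2 and 3 and non-SP replicate 2 (11.66, 11.60 and 11.51) than on the other arrays (at most 10.99). Of 12 chaperonin and prefoldin genes, 5 had differences above 0 (median -0.04), with PFDN4 at -0.32 (SE 0.135). HSCB, a mitochondrial J protein of iron-sulphur cluster assembly, differed by -0.29 (SE 0.12), and CRYAB, a small heat shock protein, by 0.32 (SE 0.16).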

How the data were processed

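RNA from sorted cells was amplified and hybridised to Affymetrix arrays. The authors deposited 1 log2 value for each probe set and array. R 2.8.1, affy and RMA are named in the submitters' processing notes. RMA brings all arrays to 1 distribution, which hides any change in total RNA. Further settings are not stated in the sources used here.

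Of 54675 probe sets, 62 controls were left out. Probe sets with 1 symbol in the platform annotation were kept (symbols updated through Entrez ID), and each gene was represented by its brightest probe set (mean of the 6 arrays). Differences are SP minus non-SP, from lmFit and eBayes (limma 3.58.1, R 4.3.3) on 19775 genes, adjusted by Benjamini-Hochberg, with 95% intervals from the fit. The background was the highest of 3 negative control probe sets on each array. For arrays, their number limits the precision. Python 3.11.15, pandas 2.3.3 and matplotlib 3.10.9 were used for sequences and figures.

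Array values are given for the 14 members with the smallest p, for defining members of each family, and for members whose probe sets differ in sign; up to 8 related genes were named by p. HSPA13, DNAJA3 and the single probe sets described were picked with their values in view. The members and lists were chosen with earlier results of these data known. Alternatives tried were to block on the replicate number, to average the probe sets of a gene, to test each probe set or the shared ones, to drop dim genes, to normalize by cyclic loess or by the median, to let the prior follow intensity robustly, to weight arrays, and to leave out each sample. The side of the first component as a block and the actin control as a covariate were added after seeing the data.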

Additional observations from a re-analysis of the deposited data

How the results depend on the processing

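In every alternative run, 0 members and 0 related genes passed the threshold. Over the 15 alternatives fitted by gene in limma, the smallest adjusted p of a member was 0.169 and 3 to 6 members had an unadjusted p under 0.05. The share of all genes with such a p ranged from 4.74% (without SP replicate 2) to 11.9% (array weights). Of the 74 probe sets tested singly, 9 had an unadjusted p under 0.05, against 7.31% of all probe sets. The count over all genes was 1 and went to 3 with the replicate block, 0 with the mean of the probe sets, 0 among genes above the median level, 12 with array weights, 5 with the array side as a block, 3 with the actin covariate, and 1 to 2 with 1 sample left out (2 without SP replicate 1). Same-numbered samples gave mixed correlations of deviations (0.449, 0.381 and -0.212 for replicates 1, 2 and 3). With the replicate block 0 of 32 members passed, and the median stayed at 0.04. In that fit 6 members had an unadjusted p under 0.05 in limma, against 8.93% of all genes. The members' median ranged from -0.0014 to 0.0621 with 1 sample left out and was 0.13 over the 10 shared probe sets, a set of other features. Following the brightest probe set of each gene, or the mean of its probe sets, 17 of 32 members kept 1 sign, but 4 of these 17 (HSPA14, HSPA1L, STIP1 and TRAP1) have another probe set of the opposite sign. With 1 sample left out HSPH1 ranged from 0.50 to 0.61, HSPA6 from 0.80 to 1.25, HSPA14 from 0.43 to 0.75, DNAJB4 from 0.38 to 0.74, HSPA2 from -0.86 to -0.43 and HSPA13 from 0.20 to 1.27.

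The members whose sign turned had differences of at most 0.29 in size, and the cause was not tested. With the mean of the probe sets HSPD1 was -0.0336, BAG2 -0.30, DNAJC7 -0.19 and HSP90AA1 0.0114. With median centring ST13 was 0.001, HSP90AA1 0.0128 and HSP90AB1 0.0145. With array weights HSF1 was -0.0326, HSPB8 0.0023 and DNAJC7 -0.0298. With the array side as a block DNAJA3 was -0.0225, HSPA4 -0.0268, BAG2 -0.0153, HSPE1 0.0013, ST13 0.0661, HSPA4L -0.14, HSP90AA1 0.0724, HSP90AB1 0.053 and DNAJB6 -0.07. With the actin covariate HSPA4L was -0.0265, HSP90AA1 0.0097, HSP90AB1 0.0027 and DNAJB6 -0.0106. With 1 sample left out the ranges that crossed 0 were -0.0491 to 0.23 for DNAJB1, -0.0178 to 0.19 for HSF1, -0.13 to 0.0098 for HSPB8, -0.0574 to 0.19 for BAG2, -0.25 to 0.0822 for HSPB11, -0.0067 to 0.14 for DNAJC7, -0.11 to 0.042 for HSPE1, -0.16 to 0.078 for ST13, -0.17 to 0.34 for HSPA4L, -0.15 to 0.0531 for HSP90AA1, -0.14 to 0.0627 for HSP90AB1 and -0.0562 to 0.17 for DNAJB6. Values near the negative controls, as in HSPB8, cannot show a difference.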

Other observations

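Immediate early genes, which cells switch on within minutes of a stimulus, were read on the same arrays. Of 8 measured, 6 had lower means in SP cells and 2 higher ones, against 45.3% of all genes with a difference above 0. In limma 0 passed the threshold (smallest adjusted p = 0.718), and 1 had an unadjusted p under 0.05 (12.5%, against 6.78% of all genes). The differences were -0.63 for FOS (SE 0.37), -0.56 for FOSB (SE 0.60) and -0.45 for JUN (SE 0.25). EGR1 differed by -0.49 (SE 0.26), JUNB by -0.39 (SE 0.19) and IER2 by -0.21 (SE 0.11). DUSP1, a phosphatase of MAP kinases, differed by 0.40 (SE 0.16) and ATF3 by 0.19 (SE 0.26). FOS, FOSB, JUN and EGR1 were lower on SP replicates 2 and 3 and non-SP replicate 2 than on the other arrays. FOSB had 8.45, 8.72 and 8.47 there, against 10.05, 10.18 and 10.24 on SP replicate 1 and non-SP replicates 1 and 3. Over all genes, 26.9% showed such a split in either direction, and its part in these differences was not tested.

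Among the epithelial markers, KRT7 averaged 11.43 across SP arrays and 10.64 across non-SP arrays (difference 0.79, SE 0.18, adjusted p = 0.451), and KRT8 averaged 7.40 across SP arrays and 8.11 across non-SP arrays (difference -0.71, SE 0.22, adjusted p = 0.611). For both keratins the SP and non-SP arrays did not overlap. KRT18, the usual partner of KRT8 in simple epithelium, differed by 0.06 (SE 0.13).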
